A study of Mus musculus with 18 samples.

Results

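The potassium channel family was followed in mouse sensory neurons of the dorsal root ganglia, which lie beside the spinal cord, kept in culture. Its members were taken as every gene whose symbol starts with Kcn, which gave 91 of the 17198 genes in the deposited table. By the letters of the symbol they were divided into 30 voltage-gated pore subunits, 10 silent modifier subunits, 13 accessory subunits, 8 calcium- or sodium-activated channels, 14 inward rectifiers and 13 2-pore-domain channels. The other 3 name no channel subunit: the noncoding RNAs Kcnq1ot1 and Kcnd3os, and Kcnrg, a regulator. Both RNAs lie antisense to a channel gene, Kcnq1ot1 within the span of Kcnq1 and Kcnd3os over the start of Kcnd3. The use of strand is not given in the sources used here. Reads from stretches where an RNA and its channel gene overlap therefore cannot be told apart.

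RNA had been sequenced from 18 cultures, 3 biological repeats in each of 6 groups: wild type (WT) mice and mice heterozygous for the tm1a allele of Dynlrb1 (Dynlrb1(tm1a/+), here HET), each after 12, 24 and 48 h in culture. Dynlrb1 is a roadblock-type light chain of dynein, which moves cargo inward from the axon, and tm1a denotes a knockout-first gene trap placed by targeting. The series compared mRNA levels between the genotypes at each time. The age and sex of the animals, and whether animals were pooled, are not given in the sources used here. The labels name the cells as DRG neurons, but the cultures also held transcripts of other cells, with the values given after the sequences.

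Potassium channels let potassium leave the cell and so pull the membrane back toward rest, which sets the resting potential, the shape of the action potential and how readily a sensory neuron fires. Voltage-gated channels are rings of pore subunits. Silent subunits form no channel alone and join such rings to change their behaviour, and accessory subunits bind them from the cytoplasm or the membrane. Inward rectifiers and 2-pore-domain channels hold the resting potential, and the calcium- and sodium-activated channels open after activity. In sensory neurons several of these channels are known to be expressed at lower levels after nerve injury, when the neurons become hyperexcitable.

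The upstream bases of 4 genes are shown because these are the members with the largest log2 fold changes at 48 h against 12 h in WT, among those also called in HET whose window in the RefSeq promoter table (GRCm38.p6, the mm10 assembly) touches no annotated exon: 2 that rose, Kcnj4 and Kcnf1, and 2 that fell, Kcns1 and Kcnj2. Each run is the 250 bases before the annotated start, 5′ to 3′ on the gene's own strand, and capitals mark the GC box GGGCGG or its reverse complement CCGCCC. The windows are chr15:79505242-79505491 (minus strand) for Kcnj4, chr12:17176889-17177138 (minus strand) for Kcnf1, chr2:164171114-164171363 (minus strand) for Kcns1 and chr11:111065914-111066163 (plus strand) for Kcnj2. Exons were those of the GENCODE M21 annotation.
Kcnj4: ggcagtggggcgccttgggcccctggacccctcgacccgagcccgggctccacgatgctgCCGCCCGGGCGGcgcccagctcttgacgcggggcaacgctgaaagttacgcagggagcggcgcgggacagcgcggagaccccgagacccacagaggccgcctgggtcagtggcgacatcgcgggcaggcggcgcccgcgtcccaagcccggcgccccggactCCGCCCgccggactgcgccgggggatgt
Kcnf1: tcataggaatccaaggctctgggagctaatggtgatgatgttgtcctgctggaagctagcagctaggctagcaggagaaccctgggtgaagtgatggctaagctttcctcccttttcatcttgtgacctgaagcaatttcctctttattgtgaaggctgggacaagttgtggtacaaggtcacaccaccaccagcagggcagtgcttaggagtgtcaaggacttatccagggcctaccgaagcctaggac
Kcns1: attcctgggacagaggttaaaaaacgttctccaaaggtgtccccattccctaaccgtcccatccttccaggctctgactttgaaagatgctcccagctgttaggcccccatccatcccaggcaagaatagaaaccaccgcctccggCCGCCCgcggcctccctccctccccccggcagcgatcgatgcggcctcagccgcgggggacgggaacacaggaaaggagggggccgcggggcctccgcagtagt
Kcnj2: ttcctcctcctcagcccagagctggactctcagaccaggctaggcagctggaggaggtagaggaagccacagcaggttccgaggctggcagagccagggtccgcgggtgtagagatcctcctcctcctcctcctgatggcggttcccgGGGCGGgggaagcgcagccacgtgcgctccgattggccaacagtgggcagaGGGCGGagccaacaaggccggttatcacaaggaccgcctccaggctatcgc
The windows of the genes that rose differed more from each other than those of the genes that fell. The window of Kcnj4 was 77.2% G or C and held 35 CG dinucleotides, while that of Kcnf1, which also rose, was 51.2% G or C with 1 CG dinucleotide and no GC box. The windows of Kcns1 and Kcnj2, which both fell, held 17 and 14 CG dinucleotides, and both held a GC box.

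Across the family, 67 of the 91 genes had an entry, with 91 windows in all. A GC box stood in 44.0% of Kcn windows and in 32.7% of all 32851 windows of the same length. The share was 41.9% in the 31 windows of genes lower at 48 h in WT, 50% in the 6 windows of genes higher and 44.4% in the 54 windows of genes not called. Searched on both strands, the TATA box TATAAA was found in 2.2% of Kcn windows and 12.4% of all, the AP-1 site TGANTCA in 4.4% and 6.75%, and the cyclic AMP element TGACGTCA in 0 of 91 and 1.55%. These are matches of letters, 1 gene can have several windows, and no binding was measured.

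The cultures matched their labels at the targeted gene: the normalized count of Dynlrb1 lay between 5229 and 6674 in the 9 WT cultures and between 2716 and 4087 in the 9 HET cultures. Sequencing depth is unknown because the deposited values had been adjusted; normalized totals ran only from 41509705 to 41509874. Neuronal markers dominated: the summed FPKM (fragments scaled to transcript length and library size, so that genes can be compared) of 9 neuronal genes was between 5395 and 7853. Markers of other cells were present too, with a satellite glia sum of 212.2 to 660.3 FPKM over 6 genes and a Schwann cell sum of 467.8 to 670.8 FPKM over 7 genes. In bulk cultures like these, fewer cells of a type and less RNA per cell cannot be told apart. Replicate 3 of HET at 48 h stood apart from the other HET 48 h cultures. Its neutrophil sum was 67.3 FPKM over 5 genes against 5.81 and 7.59, and its dividing-cell sum was 1.10 FPKM over 3 genes against 7.44 and 4.67, nearer the 12 and 24 h cultures. Counts of members that use it, and the 48 h values of the genes named in HET, are also given without it.

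The highest level per length belonged to accessory rather than pore subunits. Kcnab2, which encodes a cytoplasmic beta subunit of Kv1 channels, had a mean of 231.8 FPKM over the 18 cultures (from 183.6 to 319.6). Kcnip4 and Kcnip3, calcium-binding partners of the Kv4 channels, followed at 111.1 FPKM (from 59.5 to 184.6) and 76.97 FPKM (from 43.8 to 116.3). The lowest culture of Kcnab2 met the highest of Kcnip4, and the ranges of Kcnip4 and Kcnip3 overlapped broadly. Next came Kcna1, a Kv1 pore subunit, at 37.09 FPKM (from 23.8 to 57.9), the second Kv1 beta subunit Kcnab1 at 33.09 FPKM (from 19.7 to 56.0) and the Kv4 pore subunit Kcnd1 at 32.81 FPKM (from 14.4 to 55.9). The ranges of these last 3 genes overlapped almost wholly, so their order is not resolved. At the low end, 30 members had a mean normalized count under 100 and 9 under 20, down to 5.541; all 91 passed the filter of a mean of at least 1.

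Between 12 and 48 h in WT cultures most members that changed fell. Summed over the 88 channel and accessory subunits, FPKM went from 1154 to 1176 at 12 h, through 867 to 919 at 24 h, to 715 to 824 at 48 h, with no overlap between times. In limma with Benjamini-Hochberg adjustment over all 17198 genes, 36 of 91 members were lower at 48 h and 6 were higher. Over all genes the shares were 17.1% lower and 30% higher. The median log2 fold change was -0.47 in the family and 0.11 over all genes. By culture, 42 members were lower and 7 higher with no overlap between the 3 cultures of each time, where all genes gave 20.7% and 34.6%.

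**Figure D1:**
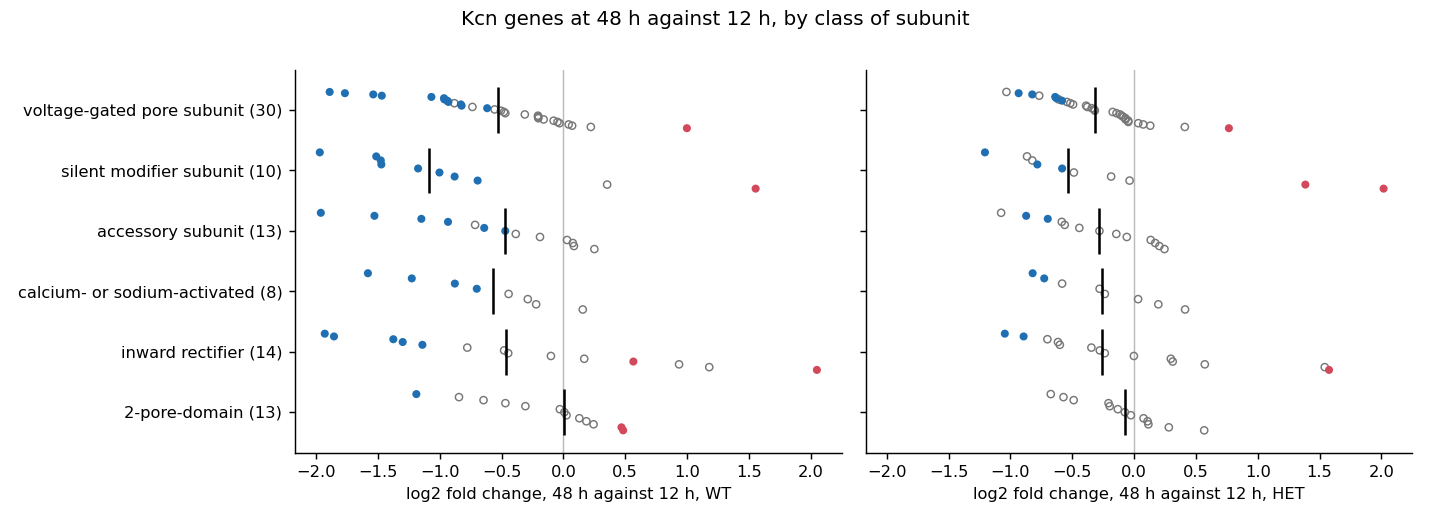
Log2 fold change of each Kcn gene at 48 h against 12 h (x axis, normalized counts plus 1) by class of subunit (y axis, number of genes in brackets), WT on the left and HET on the right. Filled points are genes with a limma adjusted p under 0.05 (blue lower, red higher), open points are genes not called, and bars are class medians; the silent modifier median was -1.09 in WT and the 2-pore-domain median 0.01.

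The classes were called at different rates, a difference that was not tested. Of the 10 silent modifiers 8 fell and 1 rose (median log2 fold change -1.09). Of the 30 voltage-gated pore subunits 12 fell and 1 rose (median -0.53), of the 13 accessory subunits 6 fell and none (0) rose (median -0.47), and of the 8 calcium- or sodium-activated channels 4 fell and none (0) rose (median -0.57). Of the 14 inward rectifiers 5 fell and 2 rose (median -0.46), and of the 13 2-pore-domain channels 1 fell and 2 rose (median 0.01). None (0) of the 3 members that are no channel subunits was called. Counts of calls were 16 lower among the 30 members with a mean normalized count of at least 1000, 14 lower among the 31 between 100 and 1000, and 6 lower among the 30 under 100.

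Among voltage-gated pore subunits, Kcna2 had the largest fall among those with a mean normalized count of at least 1000. It encodes a Kv1 subunit that sits beside the nodes of myelinated axons. Its normalized count in WT was 12165, 11134 and 13768 at 12 h, 6343, 7584 and 6949 at 24 h, and 3748, 3279 and 3849 at 48 h. Each time lay wholly below the one before. The log2 fold change at 48 h was -1.77 (SE 0.17; adjusted p by limma = 2.23e-05), which is 29.4% of the 12 h level. Its ring partner Kcna1 had 21563, 19034 and 16966 at 12 h, 15256, 14840 and 12376 at 24 h and 13183, 10635 and 8858 at 48 h. Every 12 h culture lay above every later one, and the log2 fold change was -0.83 (SE 0.20; adjusted p by limma = 0.00282). The third abundant Kv1 subunit, Kcna6, was not called at 48 h (log2 fold change -0.16, SE 0.11), nor was Kcna4 (0.04, SE 0.16).

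The Kv4 channels carry the fast, transient A-type current that delays firing. Kcnd1 had normalized counts of 4247, 4536 and 4122 at 12 h, 2307, 2565 and 1956 at 24 h, and 1752, 1173 and 1578 at 48 h in WT. The 3 times did not overlap, and at 48 h the log2 fold change was -1.54 (SE 0.18; adjusted p by limma = 2.93e-05). Kcnd3 had 6340, 6029 and 8058 at 12 h, 4033, 4518 and 4289 at 24 h, and 4458, 3751 and 5109 at 48 h. It was lower at both later times than at 12 h with no overlap, while 24 and 48 h overlapped; its log2 fold change at 48 h was -0.62 (SE 0.15; adjusted p by limma = 0.00265). Kcnd2 was low throughout, between 25.5 and 112 normalized counts, and was not called.

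Among further pore subunits, the delayed rectifier gene Kcnb2 fell by 0.82 on the log2 scale at 48 h in WT (SE 0.19; adjusted p by limma = 0.00229), and Kcnc1 fell by 0.94 (SE 0.22; adjusted p by limma = 0.00219). Kcnc2 (-0.21, SE 0.12) and Kcnc4 (-0.20, SE 0.17) were not called. Kcna5, a Kv1 gene of low level, fell by 1.47 (SE 0.40; adjusted p by limma = 0.00649).

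The ERG channels, slow-closing voltage-gated channels, split by member. Kcnh7 had 3242, 3412 and 4201 normalized counts at 12 h, 2488, 2596 and 2748 at 24 h and 1784, 1477 and 1915 at 48 h in WT, with no overlap between times. Its log2 fold change at 48 h was -1.07 (SE 0.13; adjusted p by limma = 3.29e-05), and that of Kcnh2 was -0.96 (SE 0.18; adjusted p by limma = 4.07e-04). Kcnh6 went the other way and is described with the genes that rose. Of the Kcnq genes, Kcnq3 was not called (log2 fold change -0.31, SE 0.22), while Kcnq5 fell by 0.97 on the log2 scale (SE 0.18; adjusted p by limma = 5.50e-04).

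**Figure D2:**
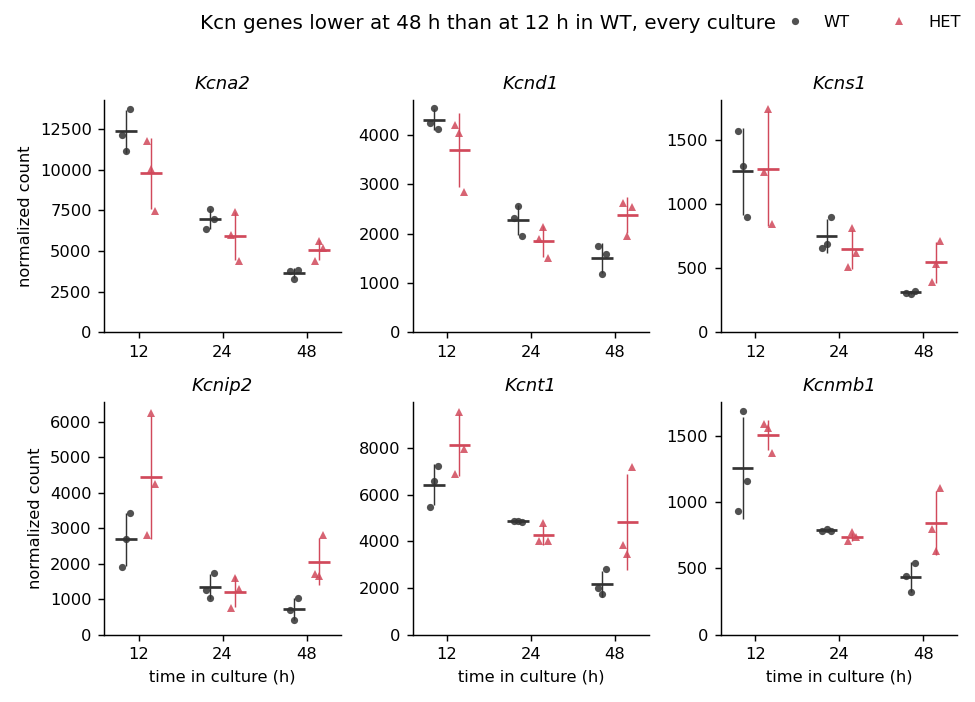
Normalized count (y axis, linear, from 0) of 6 Kcn genes against time in culture (x axis, h) in WT (dark circles) and HET (red triangles); each point is 1 culture, bars are means and vertical lines 1 SD (n = 3). In WT all 6 genes are lower at 48 h than at 12 h with no overlap, and at 48 h every HET culture lies above every WT culture in each panel.

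Silent modifiers held the largest falls. Kcns1, a Kv9 subunit that is enriched in sensory neurons, had normalized counts of 1572, 1302 and 898 at 12 h, 657, 691 and 901 at 24 h and 310, 303 and 324 at 48 h in WT. The 48 h cultures were close together and below all others, and the log2 fold change was -1.97 (SE 0.26; adjusted p by limma = 4.93e-05), 25.5% of the 12 h level. Kcns3 fell by 0.88, Kcng2 by 1.48, Kcng3 by 1.0, Kcng4 by 1.51 and Kcnv1 by 1.18 on the log2 scale. Kcns2 and Kcng1, with lower counts, fell as well (adjusted p by limma = 0.0417 and 0.0432). Kcnf1 was the one silent modifier that rose, and Kcnv2, near the bottom of the range at 3.50 to 12.9 normalized counts in WT, was not called.

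Of the 4 Kv4-binding accessory subunits measured, 3 fell. Kcnip2 had normalized counts of 1920, 2701 and 3428 at 12 h, 1270, 1038 and 1742 at 24 h and 680, 421 and 1046 at 48 h in WT. Every 48 h culture was below every 12 h culture, although 24 and 48 h met at 1038 and 1046, and the log2 fold change was -1.96 (SE 0.36; adjusted p by limma = 4.15e-04). Kcnip3 had 13292, 12106 and 9617 at 12 h, 9307, 9005 and 8955 at 24 h and 5442, 5005 and 5212 at 48 h. The times did not overlap; at 48 h the log2 fold change was -1.15 (SE 0.16; adjusted p by limma = 6.71e-05). Kcnip4 had 8044, 11107 and 12211 at 12 h, 8912, 8049 and 11440 at 24 h and 5978, 5573 and 8648 at 48 h. All 3 times overlapped, with a log2 fold change of -0.64 (SE 0.20; adjusted p by limma = 0.0166). Kcnip1 was not called (0.25, SE 0.17). Kcne4, a small membrane subunit, fell by 0.93 (SE 0.27).

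The Kv1 beta subunits moved little in proportion. Kcnab2 had normalized counts of 47254, 41872 and 35504 at 12 h, 31877, 28958 and 31385 at 24 h and 30170, 28300 and 30975 at 48 h in WT. It was lower at both later times with no overlap, and the log2 fold change at 48 h was -0.47 (SE 0.11; adjusted p by limma = 0.00297). Kcnab1 had 3605, 4717 and 4838 at 12 h, 3555, 2858 and 3104 at 24 h and 5045, 3618 and 5384 at 48 h. Its 12 and 48 h cultures overlapped (log2 fold change 0.09, SE 0.16). Kcnmb1, a beta subunit of the large-conductance calcium-activated (BK) channel, had 932, 1682 and 1157 at 12 h, 780, 792 and 783 at 24 h and 438, 318 and 540 at 48 h. The 3 times did not overlap, with a log2 fold change of -1.53 (SE 0.21; adjusted p by limma = 6.89e-05) at 48 h, while the neuronal BK beta subunit Kcnmb4 was not called (0.03, SE 0.16).

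Both sodium-activated channels fell. Kcnt1, which encodes Slack, had normalized counts of 5489, 6574 and 7217 at 12 h, 4881, 4881 and 4811 at 24 h and 1991, 1733 and 2816 at 48 h in WT, with no overlap between times. The log2 fold change at 48 h was -1.58 (SE 0.22; adjusted p by limma = 6.70e-05). Kcnt2, which encodes Slick, had 724, 658 and 581 at 12 h, 522, 514 and 565 at 24 h and 286, 242 and 309 at 48 h. These times did not overlap either, and the log2 fold change was -1.23 (SE 0.19; adjusted p by limma = 1.09e-04). The small-conductance channels Kcnn1 and Kcnn2 fell by 0.88 and 0.70 on the log2 scale, and the BK pore gene Kcnma1 was not called (0.16, SE 0.21).

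The classical inward rectifiers of the Kir2 type moved in opposite directions. Kcnj2 had normalized counts of 139, 175 and 172 at 12 h, 85.3, 145 and 147 at 24 h and 35.2, 39.7 and 51.4 at 48 h in WT. The 48 h cultures were below all others, and the log2 fold change was -1.93 (SE 0.31; adjusted p by limma = 1.55e-04). Kcnj4 had 76.5, 101 and 107 at 12 h, 85.7, 89.0 and 113 at 24 h and 452, 518 and 257 at 48 h. Only its 48 h cultures were high, at 4.14 times the 12 h level (log2 fold change 2.05, SE 0.43; adjusted p by limma = 0.00114). Kcnj12, a further Kir2 gene, had 834, 822 and 908 at 12 h, 670, 622 and 756 at 24 h and 1298, 1302 and 1197 at 48 h. It was lowest at 24 h and highest at 48 h with no overlap; the log2 fold change at 48 h was 0.57 (SE 0.20; adjusted p by limma = 0.0312). The G protein-gated subunit Kcnj3 had 376, 323 and 277 at 12 h and 142, 110 and 121 at 48 h, a log2 fold change of -1.38 (SE 0.27; adjusted p by limma = 7.35e-04). Its groups did not overlap. Kcnj11, the pore of the ATP-sensitive channel, fell by 1.30 on the log2 scale (SE 0.38; adjusted p by limma = 0.0106).

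The remaining genes that rose came from 3 classes. Kcnf1 encodes the silent subunit Kv5 and had normalized counts of 87.7, 84.9 and 116 at 12 h, 77.6, 106 and 121 at 24 h and 314, 288 and 247 at 48 h in WT. Only the 48 h cultures were raised (log2 fold change 1.55, SE 0.31; adjusted p by limma = 7.38e-04). The ERG gene Kcnh6 had 1317, 1201 and 1926 at 12 h, 1458, 1309 and 1292 at 24 h and 2805, 2789 and 3110 at 48 h. Its 48 h cultures were again above all earlier ones, with a log2 fold change of 1.0 (SE 0.23; adjusted p by limma = 0.00224). The acid-sensitive background channel Kcnk3 had 592, 577 and 583 at 12 h, 599, 722 and 497 at 24 h and 913, 791 and 755 at 48 h. It was above all earlier cultures at 48 h (log2 fold change 0.48, SE 0.18; adjusted p by limma = 0.0334), as was the stretch- and heat-sensitive Kcnk10 (0.47, SE 0.11; adjusted p by limma = 0.00210). Kcnk4, of the same mechanosensitive group as Kcnk10, fell (-1.19, SE 0.23; adjusted p by limma = 6.00e-04), and the third of that group, Kcnk2, was not called (-0.31, SE 0.19).

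**Figure D3:**
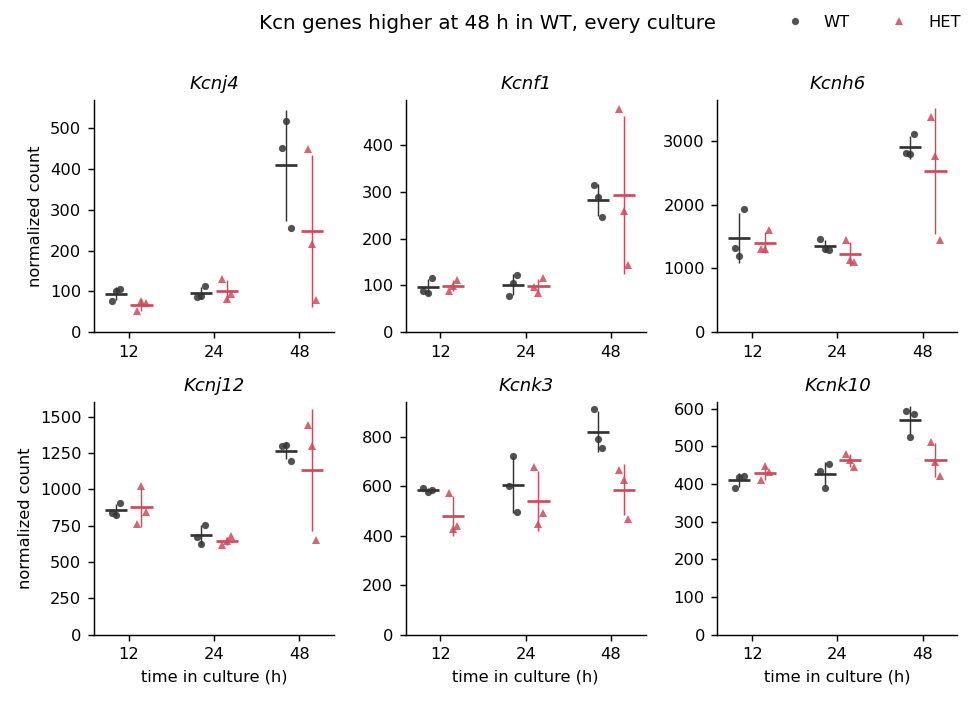
Normalized count (y axis, linear, from 0) of the 6 Kcn genes higher at 48 h in WT against time in culture (x axis, h), WT as dark circles and HET as red triangles; each point is 1 culture, bars are means and vertical lines 1 SD (n = 3). The WT cultures at 48 h lie above those at 12 and 24 h in every panel, and in HET 1 culture at 48 h, replicate 3, lies near the earlier times for Kcnj4, Kcnf1, Kcnh6 and Kcnj12.

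The rise of 2 of these genes depended on the scale. On the authors' other adjusted columns the limma adjusted p was 0.0667 for Kcnj12 and 0.107 for Kcnk3, and with quantile normalization 0.1 and 0.187. On those columns the family counted 4 higher and 38 lower, and all genes 4177 higher and 3760 lower in place of 5152 and 2946; their median over all genes was 0.01 in place of 0.11. Both genes were also not called without WT 12 h replicate 1 or 2 or without WT 48 h replicate 1 or 2, with the limma adjusted p from 0.0610 to 0.118, nor was Kcnk3 without WT 12 h replicate 5 (adjusted p by limma = 0.0694).

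The marker lists changed over the same interval in WT. The neuronal sum did not separate the times (5516 to 6989 FPKM at 12 h, 5928 to 6361 at 48 h; 2 of 9 genes higher, 4 lower). Markers of neuron subtypes fell (1808 to 2299 FPKM at 12 h, 960.3 to 1182 at 48 h; 7 of 10 genes lower), as did satellite glia markers (452.1 to 618.3 against 224.0 to 242.4 FPKM; 4 of 6 lower, 1 higher). Neutrophil markers went from 6.19 to 232.1 FPKM at 12 h to 3.76 to 5.16 at 48 h (5 of 5 lower). Fibroblast markers rose (39.9 to 88.2 against 107.0 to 154.3 FPKM; 4 of 6 higher), and so did dividing-cell markers (0.735 to 1.05 against 4.71 to 12.2 FPKM; 3 of 3 higher). Macrophage markers were also higher at 48 h (16.5 to 22.4 against 41.3 to 82.1 FPKM; 2 of 5 genes higher), as were mural markers (44.8 to 50.1 against 62.0 to 75.7 FPKM; 1 of 4 higher, 1 lower), and endothelial markers were lower (50.9 to 66.9 against 22.9 to 32.9 FPKM; 3 of 4 lower), as were red cell markers (1.38 to 8.57 against 0.113 to 0.240 FPKM; 2 of 2 lower). Schwann cell markers went from 521.5 to 670.8 FPKM to 467.8 to 491.8 (1 of 7 higher, 1 lower). The part of these lists in the changes of the Kcn genes was not tested. Kcnj10, the inward rectifier typical of satellite glia, had 90.5, 95.0 and 119 normalized counts at 12 h and 55.6, 58.4 and 61.2 at 48 h in WT; the groups did not overlap but the test did not call it (log2 fold change -0.78, SE 0.41; adjusted p by limma = 0.132).

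By 24 h in WT, 6 of the 91 members were lower and 0 higher than at 12 h, against 0.657% lower and 2.96% higher over all genes. Of the 6, 5 were voltage-gated pore subunits and 1 was an accessory subunit. They included the Kv4 genes Kcnd1 (log2 fold change -0.93, SE 0.18) and Kcnd3 (-0.66, SE 0.15), the Kv1 gene Kcna2 (-0.83, SE 0.17) and its beta subunit Kcnab2 (-0.43, SE 0.11). The limma adjusted p of these genes ran from 0.0212 to 0.0467. For Kcnt1 (-0.39, SE 0.22) and Kcnip3 (-0.35, SE 0.16) the 24 h difference was not called. These calls sat close to the threshold: leaving out 1 culture left 2 calls (without WT 12 h replicate 1 or 5) or 0 (without WT 12 h replicate 2 or any one WT 24 h culture). The counts over all genes in those fits are not given here.

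In HET cultures, 18 members were lower and 1 higher at 24 h than at 12 h, where all genes gave 5.76% lower and 13.1% higher. Of the 6 members lower in WT, 5 were among these 18 (83.3% of the WT list and 27.8% of the HET list). The largest falls in HET were in Kcnip2, with normalized counts of 2796, 6259 and 4242 at 12 h and 750, 1595 and 1295 at 24 h. The groups did not overlap, and the log2 fold change was -1.86 (SE 0.36; adjusted p by limma = 0.00304). Kcnk18, a 2-pore channel of nociceptors linked to migraine, had 229, 397 and 287 at 12 h and 73.9, 96.8 and 126 at 24 h, again apart (-1.61, SE 0.32; adjusted p by limma = 0.00371). At 48 h Kcnk18 was back at 252, 230 and 162 in HET and was not called against 12 h (-0.49, SE 0.32).

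Other members lower at 24 h in HET included Kcnmb1, with normalized counts of 1585, 1557 and 1372 at 12 h and 705, 770 and 733 at 24 h (log2 fold change -1.03, SE 0.21). Kcnd1 had 4203, 4031 and 2841 at 12 h and 1891, 2125 and 1500 at 24 h (-1.0, SE 0.18). In both genes the 24 h cultures were all below the 12 h cultures. The next largest fall was in Kcnab1 (-0.99, SE 0.16). Kcnab1 had normalized counts of 4998, 6271 and 5597 at 12 h, 2829, 2677 and 2979 at 24 h and 7600, 6081 and 5020 at 48 h, so its HET cultures were low at 24 h alone. The WT values for the same gene, given above, were also lowest at 24 h, where the gene was not called (24 h log2 fold change -0.46, SE 0.16; adjusted p by limma = 0.111). The 1 member higher at 24 h was Kcnv2, at 1.38, 1.60 and 1.92 normalized counts at 12 h and 10.6, 6.36 and 20.2 at 24 h. That gene is close to the lowest level in the table, and its log2 fold change of 2.22 (SE 0.47; adjusted p by limma = 0.00465) rests on 3 very low 12 h cultures. Without HET 12 h replicate 2 the family count was 11 in place of 19, and the count over all genes in that fit is not given here. Among the other abundant members in HET, Kcnab2 had normalized counts of 42267, 46488 and 34191 at 12 h, 28857, 31222 and 27148 at 24 h and 35015, 34107 and 31422 at 48 h. Its 24 h cultures were below all 12 h cultures, while 12 and 48 h overlapped. Kcna1 had 18926, 14908 and 11160 at 12 h, 14887, 16329 and 9466 at 24 h and 10028, 10261 and 9891 at 48 h. Only 12 and 48 h did not overlap, and neither change was called. Kcnip4 had 12085, 17290 and 16092 at 12 h, 7868, 9875 and 10526 at 24 h and 9586, 10046 and 13910 at 48 h, with its 24 h cultures below all 12 h cultures.

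At 48 h in HET, 14 members were lower and 4 higher than at 12 h, with backgrounds of 3.62% and 10.6%, and the family median was -0.24. All 14 were also lower in WT, where they make up 38.9% of the 36. They included Kcna2, Kcnd1, Kcnh7, Kcnq5, Kcns1, Kcns3, Kcng2, Kcnip3, Kcnmb1, Kcnt1, Kcnt2, Kcnj2 and Kcnj3. In HET, Kcns1 had normalized counts of 1252, 1744 and 843 at 12 h and 394, 534 and 710 at 48 h (log2 fold change -1.21, SE 0.26; adjusted p by limma = 0.0152). Its HET groups did not overlap. Kcnj2 had 162, 175 and 190 at 12 h and 53.6, 99.4 and 112 at 48 h, also apart (-1.05, SE 0.31; adjusted p by limma = 0.0350). Kcna2 had 11791, 10063 and 7485 at 12 h and 4383, 5635 and 5159 at 48 h, likewise apart (-0.93, SE 0.17; adjusted p by limma = 0.0121). Kcnj3 had 331, 410 and 285 at 12 h and 169, 156 and 228 at 48 h (-0.89, SE 0.27), and Kcnmb1 had 792, 629 and 1105 at 48 h (-0.87, SE 0.21). Neither overlapped with its 12 h cultures. Kcnip3 had 12414, 12812 and 8749 at 12 h, 8453, 9628 and 7403 at 24 h and 5774, 6448 and 8754 at 48 h, where replicate 3 just reached the lowest 12 h culture (-0.70, SE 0.16). Without HET 48 h replicate 3 the log2 fold change was -1.42 for Kcns1, -1.25 for Kcnj2, -0.95 for Kcna2, -1.06 for Kcnj3, -1.09 for Kcnmb1 and -0.87 for Kcnip3, all of them called.

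The genes higher at 48 h in HET were Kcnj4, Kcnf1 and Kcnh6, which were also higher in WT, and Kcnv2. Kcnj4 had normalized counts of 51.0, 77.7 and 71.6 at 12 h and 449, 217 and 79.5 at 48 h (log2 fold change 1.58, SE 0.43; adjusted p by limma = 0.0275). Replicate 3 at 48 h was close to the 12 h cultures. Kcnf1 had 88.7, 98.2 and 112 at 12 h and 476, 258 and 144 at 48 h (1.39, SE 0.31; adjusted p by limma = 0.0154), and Kcnh6 had 1311, 1308 and 1597 at 12 h and 3381, 2760 and 1446 at 48 h (0.77, SE 0.23; adjusted p by limma = 0.0379). In both, replicate 3 was the lowest 48 h culture, and for Kcnh6 it lay inside the 12 h range. Kcnv2 had 1.38, 1.60 and 1.92 at 12 h and 6.53, 8.40 and 15.96 at 48 h, apart but very low (2.02, SE 0.47; adjusted p by limma = 0.0166). Without replicate 3 the log2 fold change was 2.23 for Kcnj4, 1.81 for Kcnf1, 1.13 for Kcnh6 and 1.68 for Kcnv2, all of them called. On the authors' other columns the limma adjusted p of Kcnh6 was 0.0726, and with quantile normalization 0.0680.

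The HET count at 48 h turned on single cultures. It was 28 without HET 48 h replicate 3 (8 higher, 20 lower), 9 without HET 12 h replicate 1, and 0 without HET 12 h replicate 2, HET 48 h replicate 1 or HET 48 h replicate 2, and it was also 0 when only these 2 groups were fitted. The counts over all genes in these fits are not given here, so the shifts are not read as a trait of the family. On the authors' other columns the family counted 3 higher and 18 lower, and all genes 999 higher and 926 lower in place of 1820 and 622.

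Between genotypes at 48 h, more members were higher in HET than lower. Whether any was called depended on the setting. One such setting was pairing the cultures by number, which was chosen from their shared deviations at 48 h. With replicate number as a block, 13 members were higher and 1 lower in HET, against 5.04% and 7.29% of all genes. Without the block the count was 0, as over all genes (0%), while 26 members had an unadjusted p under 0.05 (22 higher, 4 lower), against 8.72% higher and 13.3% lower over all genes. The estimate was above 0 in 62 of 91 members and in 45.2% of all genes, and the median log2 fold change was 0.19 against -0.03. At 48 h, 21 members were higher and 3 lower in HET with no overlap between the cultures, where all genes gave 9.57% and 14.4%. The lower ones included Kcnk3 and Kcnk10. Without HET 48 h replicate 3 these counts were 29 and 5, with 13.3% and 18.1% of all genes, since fewer cultures separate more easily. In the authors' deposited table, 9 members were higher and 0 lower at an adjusted p under 0.05 (2.7% and 3.27% of all genes).

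**Figure D4:**
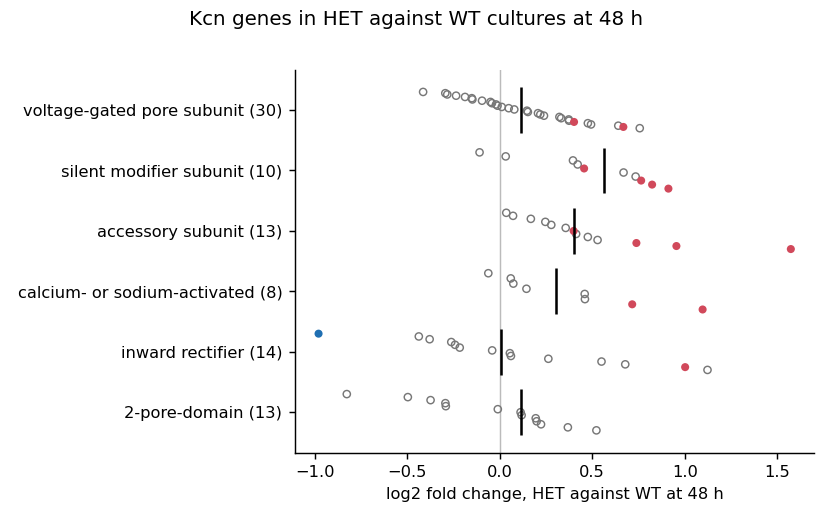
Log2 fold change of each Kcn gene in HET against WT at 48 h (x axis, normalized counts plus 1) by class of subunit (y axis, number of genes in brackets). Filled points have a limma adjusted p under 0.05 with replicate number as a block (red higher, blue lower), open points do not, and bars are class medians; all 13 accessory subunits lie above 0.

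All 13 accessory subunits had an estimate above 0 at 48 h (median log2 fold change 0.40), as had 9 of 10 silent modifiers (0.56) and 7 of 8 calcium- or sodium-activated channels (0.30). The 30 voltage-gated pore subunits had 18 above 0 (0.11), the 14 inward rectifiers 7 (0.01) and the 13 2-pore-domain channels 7 (0.11). Calls with the block fell on 4 accessory subunits (Kcnip2, Kcnip3, Kcnip4 and Kcnmb1), 4 silent modifiers (Kcns1, Kcns3, Kcng2 and Kcng3), 2 activated channels (Kcnt1 and Kcnn1), 2 pore subunits (Kcnd1 among them) and the inward rectifier Kcnj2. The member lower in HET was Kcnj4.

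The lowest p belonged to Kcnt1, whose normalized counts at 48 h were 1991, 1733 and 2816 in WT and 3847, 3440 and 7193 in HET. The genotypes did not overlap, and replicate 3 was the highest culture of each. The log2 fold change was 1.10 (SE 0.22; adjusted p by limma = 0.0502 without the block and 3.23e-04 with it). Kcnmb1 had 438, 318 and 540 in WT and 792, 629 and 1105 in HET. Again each HET culture was above each WT culture (0.96, SE 0.21; adjusted p by limma = 0.0502 without the block and 0.00217 with it). Kcnip2 had 680, 421 and 1046 in WT and 1703, 1651 and 2821 in HET, also apart, with the largest difference of the 3 (1.57, SE 0.36; adjusted p by limma = 0.0516 without the block and 0.00231 with it). Without HET 48 h replicate 3 the blocked log2 fold change was 0.97 for Kcnt1, 0.92 for Kcnmb1 and 1.65 for Kcnip2, with an adjusted p by limma of 0.00514, 0.0183 and 0.0151 in that order.

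The same order held for other members called with the block. Kcnip4 had normalized counts of 5978, 5573 and 8648 in WT and 9586, 10046 and 13910 in HET at 48 h (log2 fold change 0.74, SE 0.20; adjusted p by limma = 0.0655 without the block and 0.00130 with it). Kcnd1 had 1752, 1173 and 1578 in WT and 2628, 1955 and 2535 in HET (0.67, SE 0.18; adjusted p by limma = 0.0602 and 0.00217 in that order). Kcns1 had 310, 303 and 324 in WT and 394, 534 and 710 in HET (0.76, SE 0.26; adjusted p by limma = 0.108 and 0.0193 in that order). In these genes no HET culture reached down to a WT culture. For Kcnj4 the genotypes overlapped at 48 h, and the log2 fold change was -0.98 (SE 0.43; adjusted p by limma = 0.195 without the block and 0.0377 with it). Without HET 48 h replicate 3 it was -0.33 without the block and -0.63 with it (adjusted p by limma = 0.775 and 0.290), so that call rested on 1 culture. The blocked calls of Kcns1 (0.58; adjusted p by limma = 0.155), Kcnj2 (0.95; 0.0558) and Kcnip3 (0.23; 0.289) were also lost without it, as were those of Kcng2 and Kcns3, while Kcnip4 (0.77; 0.0104) and Kcnd1 (0.66; 0.0167) passed and Kcnab1 was called in addition.

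Without replicate 3 of HET at 48 h the test called 0 members, and with the block 9 higher and 0 lower; the family median was 0.21. Leaving out another culture gave a count without the block of 9 (HET 48 h replicate 1), 7 (WT 48 h replicate 3) or 5 (HET 48 h replicate 2). It stayed at 0 without WT 48 h replicate 1 or 2. The shares of all genes called without 1 culture are not given here, so these counts are not set against a background. With all cultures the block called 5.04% of all genes higher in HET and 7.29% lower. The comparison between genotypes and the WT time course share the WT 48 h cultures, so the values of a gene in both are not independent. Summed over the 88 subunits, FPKM at 48 h was 715 to 824 in WT and 920 to 969 in HET. The neuronal marker sum was also higher in HET without overlap, at 5928 to 6361 FPKM in WT and 6410 to 6596 in HET. The subtype marker sum was 960.3 to 1182 in WT and 1126 to 1915 in HET. Macrophage markers were lower in HET (41.3 to 82.1 in WT and 24.2 to 37.2 in HET) and neutrophil markers higher (3.76 to 5.16 and 5.81 to 67.3), neither with overlap. The part of these markers was not tested.

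At 12 h no member (0) was called between genotypes, with 0.00581% of all genes called and 10 members at an unadjusted p under 0.05 (3 higher, 7 lower), against 2.41% higher and 6% lower over all genes. Kcnv2 and Kcnk5 were among the members of lowest p, each with a limma adjusted p of 0.577. Kcnk5 had normalized counts of 180, 139 and 114 in WT and 93.2, 84.6 and 74.6 in HET, without overlap (-0.75, SE 0.27). Kcnv2 had 3.50, 11.5 and 8.57 in WT and 1.38, 1.60 and 1.92 in HET (-1.63, SE 0.47), again apart but at the bottom of the range.

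At 24 h no member (0) was called and 0.00581% of all genes were, while 0 members had an unadjusted p under 0.05 (1.15% of all genes); the estimate was below 0 in 68 of 91 members and in 47.1% of all genes (family median -0.11). The lowest p belonged to Kcnj10 (log2 fold change -0.83, SE 0.41), Kcnt2 (-0.37, SE 0.19) and Kcnh7 (-0.24, SE 0.13). Kcnt2 had normalized counts of 522, 514 and 565 in WT and 362, 499 and 388 in HET, so the HET cultures lay below. Kcnj10 had 54.5, 69.2 and 72.8 in WT and 14.9, 59.8 and 52.0 in HET, and these overlapped. Kcnh7 had 2488, 2596 and 2748 in WT and 2154, 2655 and 1902 in HET, which overlapped too. Each had a limma adjusted p of 1.0.

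Averaged over the 3 times, no member (0) was called between genotypes, with 0.0174% of all genes called and 13 members at an unadjusted p under 0.05 (9 higher, 4 lower), against 5.33% higher and 8.13% lower over all genes. The lowest p belonged to Kcnip4 (log2 fold change 0.43, SE 0.12), Kcnip2 (0.69, SE 0.21) and Kcnt1 (0.41, SE 0.13), each with a limma adjusted p of 0.310. Without HET 48 h replicate 3 these were 0.37, 0.61 and 0.30. For Kcnip4 the values at 12 h were 8044, 11107 and 12211 in WT and 12085, 17290 and 16092 in HET, which overlapped only between the lowest HET and the highest WT culture.

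Whether the change from 12 to 48 h differed between genotypes was tested directly. No member (0) was called and no gene at all (0%), while 9 members had an unadjusted p under 0.05 (8 with a positive difference, 1 negative), against 4.11% and 4.81% of all genes. The difference, HET minus WT, was positive in 70 of 91 members and in 48.6% of all genes, with a median of 0.35 in the family and -0.01 over all genes. It was 0.91 for Kcnd1 (SE 0.25) and 0.83 for Kcna2 (SE 0.24), each with a limma adjusted p of 0.548. Without HET 48 h replicate 3 it was 0.86 and 0.82. The estimated change with time in HET was -0.63 against -1.54 in WT for Kcnd1 and -0.93 against -1.77 in WT for Kcna2, and the test did not separate the genotypes.

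Proteins that bind or place potassium channels were taken as a list of 29 genes, 27 of them measured. At 48 h against 12 h in WT, 11 were lower and 5 higher, and in HET 8 were lower and 0 higher. Over all genes the shares were 17.1% lower and 30% higher in WT, and 3.62% lower and 10.6% higher in HET. Dpp6 and Dpp10, membrane partners of Kv4, fell in WT by 1.09 (SE 0.13) and 1.92 (SE 0.30) on the log2 scale and in HET by 0.63 (SE 0.13) and 1.18 (SE 0.30). Cntnap2, which gathers Kv1 channels beside the node, fell by 0.91 in WT (SE 0.12) and 0.50 in HET (SE 0.12). Lgi1 and Adam23, of the same axonal Kv1 complex, were lower in both genotypes too. The higher ones in WT were Vapa, Hcn3, Dlg1, Abcc9 and Lrrc38. The channel partner Amigo1 (0.11, SE 0.17 in WT) and the repressor Rest (-0.28, SE 0.14 in WT) were not called. Between genotypes at 48 h, 0 of the 27 were called without the block, as over all genes (0%). With the block 4 were higher and 3 lower in HET, against 5.04% and 7.29% of all genes.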

How the data were processed

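Messenger RNA was sequenced from 18 cultures in 6 groups of 3. The deposited table holds 17198 genes. It gives normalized counts, here treated as a signal that the authors had scaled and adjusted, a further set of adjusted signal columns, and FPKM, which the authors had scaled by gene length per the file headers. Log2 fold changes and p-values of the authors' own comparisons also stand there, per the file headers. CASAVA 1.8.2, edgeR and mm10 are named per the submitters' processing notes; the aligner and the annotation are not given in the sources used here. The normalized values hold 0 zeros and 0 whole numbers, and they vary in 15 of the 17 directions that 18 samples allow, so no count test was run, the depth is unknown, and errors may be understated.

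All 18 cultures were fitted together with limma 3.58.1 in R 4.3.3 on log2(normalized count + 1), with 1 coefficient per group, a filter of a mean of at least 1 (which removed 0 genes) and a mean-variance trend. P-values were adjusted by Benjamini-Hochberg over all 17198 genes within each of 9 comparisons, with a threshold of 0.05. A fold change on this scale understates that of low genes. The fit was tested on simulated data. Values over cultures and figures were made with Python 3.11.15, pandas 2.3.3 and matplotlib 3.10.9.

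Any Kcn gene could be named. Values in the cultures compared were given for the 6 of highest mean FPKM, for up to 5 higher and 5 lower genes of largest change per time comparison with a mean of at least 50, and for the called genes, or else the 3 of lowest p, per genotype comparison; further genes fill out each subfamily. Some members that this rule takes are counted with the family but not reported here by name. The members and lists were chosen with earlier results of these data known. Pairing by replicate number was checked by correlating deviations from the group means. At 48 h same-numbered WT and HET cultures gave r = 0.321, 0.209 and 0.461, and differently numbered ones from -0.471 to 0.178. The number was therefore used as a block for the comparison at 48 h. That choice rests on these same data, and the labels do not say what the number marks. The blocked fit of HET against WT took in the cultures of all times, paired by number within each time. Its errors at 48 h therefore also draw on the pairs at 12 and 24 h. Not all same-numbered pairs passed 0.1 at 12 h (lowest 0.0318) or 24 h (lowest -0.207). Alternatives were another pseudocount, other filters, the other signal columns, quantile normalization, only the groups compared, the block and leaving out each culture. Taking the 2 removed directions as covariates, and the block and the counts of separated groups without HET 48 h replicate 3, were chosen after seeing the data. Gene positions are from GENCODE M21, where 90 of 91 members were placed.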

Additional observations from a re-analysis of the deposited data

Results flagged for a closer look

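For 3 members all HET cultures lay on one side of all WT cultures at one time and on the opposite side at the next; the difference between times was not tested. These 3 are 3.3% of the family, and 255 genes, 1.48% of all, did the same. Kcnab3, a Kv1 beta subunit, had a log2 fold change in HET against WT of -0.36 at 12 h and 0.25 at 24 h. Kcnmb1, the BK beta subunit, had -0.09 at 24 h and 0.96 at 48 h, and Kcnt1, the sodium-activated Slack channel, -0.19 at 24 h and 1.1 at 48 h. For Kcnmb1 the normalized counts at 24 h were 780, 792 and 783 in WT and 705, 770 and 733 in HET, and for Kcnt1 they were 4881, 4881 and 4811 in WT and 4027, 4770 and 4008 in HET. At that time all HET cultures of both genes lay just below all WT cultures, and at 48 h well above them.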

How the results depend on the processing

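The count of members called at 48 h against 12 h in WT stayed between 34 and 46 over all alternatives, and 34 to 43 when 1 culture was left out. The other counts depended more on the setting. For HET against WT at 48 h, where 0 members were called, a filter of a mean of at least 20 gave 3, quantile normalization 3, the replicate block 14 and the block without HET 48 h replicate 3 9; leaving out 1 culture gave 0 to 9. Averaged over times the block gave 6 in place of 0. At 24 h against 12 h in WT (6 members) the block gave 20, the 2 removed directions as covariates 10, and leaving out 1 culture 0 to 2; in HET (19 members) the block gave 33 and leaving out 1 culture 11 to 25. At 48 h against 12 h in HET (18 members) fitting only the groups compared gave 0, the block 34, and leaving out 1 culture 0 to 28. The block also raised the share of all genes called in either direction. For HET against WT it went from 0% to 12.3% at 48 h and from 0.0174% to 3.22% averaged over times. At 24 h against 12 h it went from 3.62% to 9.43% in WT and from 18.9% to 26.2% in HET. At 48 h against 12 h in HET it went from 14.2% to 30.8%. For the other settings named here the shares over all genes are not given. The cause of these shifts was not tested, except that leaving out a culture lowers the number of samples. At 12 and 24 h, and between times, the cultures share only a number, and 12 and 48 h share only the numbers 1 and 2, so those blocked counts are not read as stronger results. Reversal of direction was checked for 43 results of named genes only, and none of these reversed in any alternative. Other members could change sign: at 48 h against 12 h in HET, 26 of 91 estimates were above 0, and 28 with the block. With 3 cultures a group and unknown depth, differences in the 30 members with a mean normalized count under 100 were the hardest to resolve.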

Other observations

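Of neighbouring Kv1 genes, some were called and others were not. On chromosome 6 (mm10, minus strand) Kcna5 (chr6:126532551-126535412), Kcna1 (chr6:126640397-126646384) and Kcna6 (chr6:126708329-126740674) follow each other. At 48 h against 12 h in WT, Kcna5 fell by 1.47 on the log2 scale (SE 0.40; adjusted p by limma = 0.00649) and Kcna1 fell by 0.83 (SE 0.20; adjusted p by limma = 0.00282), while Kcna6 had -0.16 (SE 0.11; adjusted p by limma = 0.227) and was not called. On chromosome 3 (plus strand) Kcna3 (chr3:107036169-107038070) stands before Kcna2 (chr3:107101146-107115005) and Kcna10 (chr3:107183056-107195721) after it. Kcna2 fell by 1.77 (SE 0.17; adjusted p by limma = 2.23e-05), and Kcna3 had -0.03 (SE 0.31; adjusted p by limma = 0.942). Kcna10 was not called. Kcna3 and Kcna10 were low, with mean normalized counts of 45.29 and 8.147. The difference between neighbours was not tested.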
